A study of Schizosaccharomyces pombe with 12 samples.

Results

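The genes described here encode the proteins of the cytosolic ribosome of the fission yeast Schizosaccharomyces pombe. They were taken as the probe sets of a single S. pombe gene whose platform symbol is rpl, rps or rpp followed by digits only. This gave 120 probe sets for 118 genes out of 2917 single-gene S. pombe probe sets. Of these, 67 belonged to the large subunit (66 genes), 46 to the small subunit (45 genes) and 7 to the acidic stalk of the large subunit (7 genes). The genes rps3002 and rpl3702 each had a pair of probe sets. Another 7 probe sets that match more than 1 ribosomal protein gene were left out. The study compared 3 strains in 4 conditions, with 1 array for each of the 12 combinations. The wild type (WT, strain JK317), the slm9 deletion (slm9D) and the hip1 deletion (hip1D) were all h-, leu1-32 and ura4-D18, and in the mutants the deleted gene was replaced by ura4. Cells grew in YES, a rich medium, at 32 °C to the logarithmic phase. The 4 conditions were no stress, 1 h of heat at 40 °C, 1 h in 25 mM H2O2, and the heat step followed by the H2O2 step. The series asks what HIRA does in the response to low-dose stress.

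The ribosome is built from a small subunit that reads the mRNA and a large subunit that joins amino acids. In yeasts many of its proteins are encoded by more than one near-identical gene, called paralogs, which are numbered here by their last digits. The stalk is a flexible arm of the large subunit in which P0 (rpp0) anchors the P1 and P2 proteins (the rpp1 and rpp2 families), which recruit translation factors. Ribosomal protein genes are among the most strongly transcribed genes of growing yeast, and yeast cells are known to lower their mRNAs together under many stresses. Slm9 and Hip1 are the fission yeast relatives of HIRA, a histone chaperone that assembles nucleosomes outside DNA replication.

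Signals are log2 intensities, and a difference is called when limma's Benjamini-Hochberg adjusted p over all 2917 probe sets is under 0.05. Each strain has 1 array per condition, so the strains serve as the repeats of a stress and the conditions as the repeats of a deletion. The design text speaks of growth in quadruplicate and of aliquots for the 4 conditions, which leaves unclear whether the 4 arrays of a strain came from 1 culture or 4, and no group has a repeat of its own. All p-values therefore rest on the spread between these 12 arrays, which may be technical. The wild type also differs from both mutants at ura4, whose mean signal was 4.69 ± 0.41 in WT (SD, n = 4), against 11.46 ± 0.25 for slm9D and 11.64 ± 0.20 for hip1D. The deletion and the marker cannot be told apart. The slm9 probe set averaged 9.59 ± 0.31 in WT and 5.14 ± 0.22 in slm9D (n = 4 each). The hip1 probe set averaged 9.51 ± 0.22 in WT and 8.39 ± 0.07 in hip1D, a smaller drop. Arrays report each gene relative to the whole RNA sample, so a change in a gene's mRNA and an opposite change in the rest of the RNA cannot be told apart.

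Ribosomal protein probe sets lay at the top of the signal range. Their mean signal over the 12 arrays had a median of 13.43, against 9.47 for all tested probe sets, and the highest value of any array was 14.31. For 81 of 120 members the mean lay within 1 log2 unit of that highest value. Of the 200 brightest probe sets, 114 were ribosomal protein probe sets, and they made up 14 to 23 of the brightest 30 on each array. The highest mean signals were those of rps13 (14.05), rpl1001 (13.98) and rpl4102 (13.90), and the lowest were those of rpl1603 (10.14), rps1401 (11.37) and rpl3402 (11.79). Probe sets differ in how well they bind their target, so these signals do not rank the mRNAs.

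The members varied little from array to array. A member's range over the 12 arrays had a median of 0.26, against 1.08 for all tested probe sets. It was 0.20 for the 81 members near the top of the range and 0.45 for the other 39. For 104 members the range was under 0.5, and for 4 it was over 1: rpl1603, rps1401, rpl102 and rpl4101. Those 4 are among the 6 members of lowest mean signal. No saturation call was used, so compression of differences at the top of the range was not tested. Across the 120 members, Spearman's rho between mean signal and the difference was 0.60 for 40 °C, 0.19 for H2O2, 0.61 for 40 °C then H2O2 and 0.56 for mutants against WT. These rhos are descriptions over genes that share the same arrays.

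**Figure D1:**
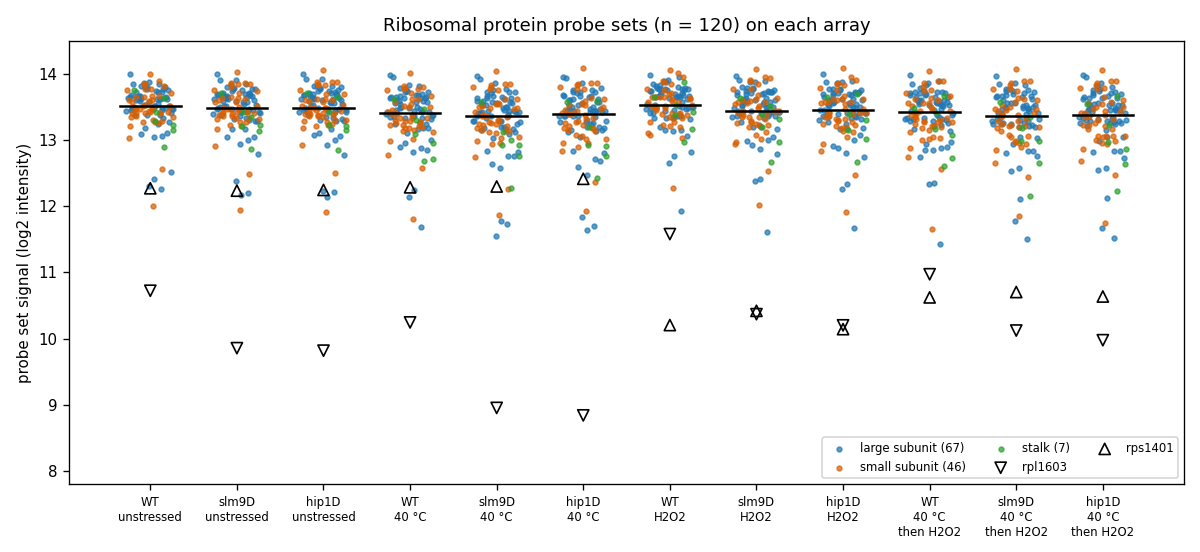
Log2 signal (vertical axis) of the 120 ribosomal protein probe sets on each of the 12 arrays (horizontal axis, strain and condition). Points are probe sets, horizontal bars are the median of each array, and open triangles mark rpl1603 and rps1401. The medians lie between 13.37 and 13.52 on every array, while rps1401 drops to between 10.14 and 10.70 on the 6 arrays with H2O2 and rpl1603 lies lower in both mutants than in WT in each condition.

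At 40 °C most ribosomal protein genes fell slightly and none rose. The median difference from unstressed cells was -0.12, against 0.01 for all tested probe sets. Of the 120 members, 81 fell, against 25.7% of all tested probe sets called lower, and 0 rose, against 22.7% called higher. The median was -0.12 in the strain with the largest drop and -0.11 in the strain with the smallest. The subunits gave similar counts: 44 of 67 large subunit probe sets fell (median -0.11) and 30 of 46 small subunit probe sets fell (median -0.10). Members within 1 log2 unit of the highest signal had a median of -0.09, and the other 39 a median of -0.21.

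The largest falls at 40 °C were those of rpl1603 (-0.79 ± 0.11, SE), rpl3402 (-0.51 ± 0.08), rpl4101 (-0.46 ± 0.12), rps2601 (-0.43 ± 0.03), rpl502 (-0.42 ± 0.06) and rpp101 (-0.40 ± 0.04). Their limma adjusted p ranged from 1.16e-05 for rps2601 to 0.0125 for rpl4101. In WT, slm9D and hip1D respectively, rps2601, which encodes a protein at the mRNA exit channel, had signals of 13.53, 13.39 and 13.38 unstressed and 13.19, 12.94 and 12.89 at 40 °C. All 3 heated arrays were below all 3 unstressed ones. The gene rpl502 encodes a protein that binds 5S rRNA, and its signals went from 13.17, 13.16 and 13.11 to 12.95, 12.64 and 12.60. Here too the groups did not overlap, with the smallest fall in WT. The gene rpl4101, for a very short protein lodged between the subunits, went from 12.30, 12.38 and 12.23 to 12.14, 11.55 and 11.84, so the WT value moved least.

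The number of calls at 40 °C changed with the scale and with the strains included. With the arrays scaled to a common median of the probe sets outside S. pombe, 38 members fell and 7 rose. The members' median was then -0.05, against 0.08 for all tested probe sets. Without slm9D 29 were called, without hip1D 43 and without WT 93. The members' median was -0.109, -0.111 and -0.122 in that order, so it moved little. Each of these fits also has fewer arrays, and the part of that in the counts was not tested.

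The stalk genes fell together at 40 °C: all 7 were called lower, with a median of -0.26 and strain medians from -0.30 to -0.20. The P1 genes rpp101, rpp102 and rpp103 differed by -0.40, -0.22 and -0.26, the P2 genes rpp201, rpp202 and rpp203 by -0.29, -0.19 and -0.40, and the anchor rpp0 by -0.13. The limma adjusted p of these ranged from 9.64e-05 (rpp101) to 0.033 (rpp202). In WT, slm9D and hip1D the rpp101 signals were 13.16, 13.14 and 13.15 unstressed and 12.72, 12.76 and 12.76 at 40 °C. They were 13.17, 12.98 and 13.02 with H2O2, and 12.72, 12.65 and 12.64 with both treatments. The 6 arrays with a 40 °C step were lower than the 6 without it. The stalk probe sets also had the lowest mean signals, with a median of 13.12, against 13.51 for the large subunit and 13.38 for the small. The difference between the stalk genes and the rest was not tested, nor was the part of signal level in it.

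**Figure D2:**
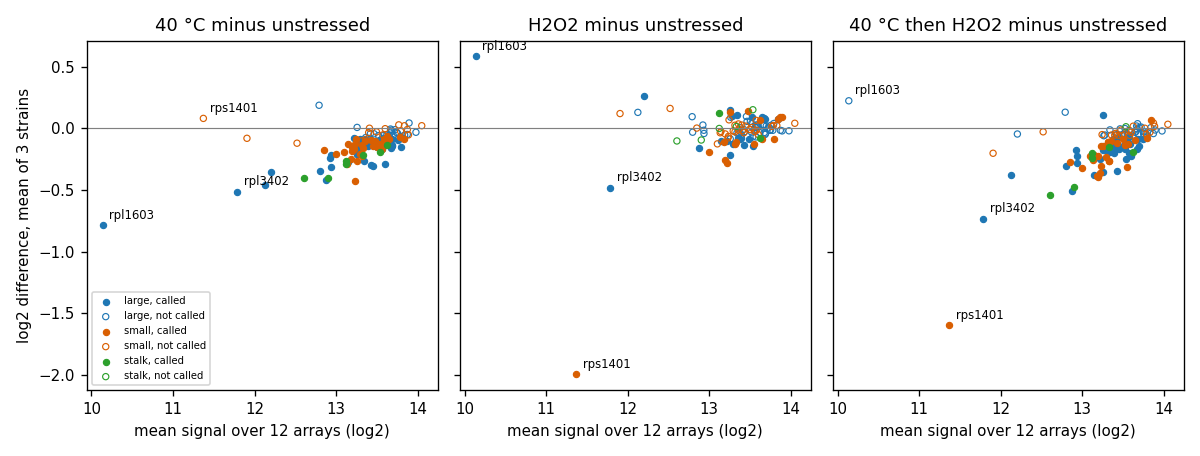
Log2 difference from unstressed cells (vertical axis, mean of 3 strains) against mean log2 signal over 12 arrays (horizontal axis) for the 120 ribosomal protein probe sets, in 1 panel per stress. Colours give the subunit and filled points are called. At 40 °C and after both treatments most points lie below 0 and the brightest probe sets lie nearest to 0, while after H2O2 alone rps1401 stands at -1.99.

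H2O2 alone left most ribosomal protein genes close to their unstressed level, with 1 large exception. The median difference was -0.01, against -0.07 for all tested probe sets. Of 120 members, 17 rose, against 15.8% of all tested probe sets called higher, and 22 fell, against 29.2% called lower. The large subunit had 10 higher and 11 lower, the small subunit 6 higher and 10 lower, and the stalk 1 higher (rpp201, 0.13 ± 0.04) and 1 lower (rpp0, -0.08 ± 0.03, which turned to 0.03 and was not called with equal medians of S. pombe probe sets). The exception was rps1401, which fell by 1.99 on the log2 scale, or 3.98-fold. The next falls were those of rpl3402 (-0.48 ± 0.08), rps2302 (-0.28 ± 0.03), rps1602 (-0.26 ± 0.04), rpl2502 (-0.22 ± 0.03) and rps1001 (-0.19 ± 0.03). The largest rises were those of rpl1603 (0.58 ± 0.11), rpl102 (0.26 ± 0.07), rpl3602 (0.15 ± 0.04), rps1202 (0.14 ± 0.03) and rps1402 (0.13 ± 0.03).

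In WT, slm9D and hip1D, rpl3402 had signals of 12.25, 12.20 and 12.21 unstressed and 11.93, 11.61 and 11.67 after H2O2, with no overlap. The gene rpl102 encodes a protein of the L1 stalk, a mobile arm beside the tRNA exit site. Its signals were 12.42, 12.17 and 12.14 unstressed and 12.76, 12.41 and 12.33 after H2O2. Each strain's value was higher after H2O2, but the groups overlapped because WT started above the mutants.

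The balance of these calls followed the scale. The WT array after H2O2 had the lowest median of all tested probe sets (9.36, against 9.46 to 9.57 on the other 11). With the arrays shifted to equal medians of S. pombe probe sets, the median of all tested probe sets was 0.04, that of the members 0.09, and 40 members rose and 4 fell. Against 39 calls with all strains, leaving out slm9D gave 6, leaving out hip1D 10 and leaving out WT 57. The control probe set for the middle of 28S rRNA read 10.53 ± 0.28 unstressed, 10.18 ± 0.51 at 40 °C, 12.80 ± 0.10 after H2O2 and 13.19 ± 0.19 after both (SD, n = 3 each). The gap between the 3′ and 5′ control probe sets of ACT1 was 0.43 ± 0.04, 0.50 ± 0.05, 0.65 ± 0.01 and 0.91 ± 0.11 in the same order. For RIP1 the same gap was 1.08 ± 0.15, 1.16 ± 0.27, 0.98 ± 0.10 and 0.87 ± 0.13. Unlike that of ACT1, it was lowest after both treatments. The part of these controls in the results was not tested.

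With 40 °C followed by H2O2, ribosomal protein genes were again mostly lower than in unstressed cells. The median was -0.09, against -0.05 for all tested probe sets. Of 120 members, 67 fell, against 33.5% of all tested probe sets, and 2 rose, against 23.8%. The 2 that rose were rpl3602 (0.11 ± 0.04) and rps29 (0.07 ± 0.02). The large subunit had 35 lower (median -0.07), the small subunit 26 lower (median -0.10) and the stalk 6 of 7 lower (median -0.20), the seventh being rpp202 at 0.01 ± 0.06. The largest falls were those of rps1401 (-1.60 ± 0.07), rpl3402 (-0.73 ± 0.08), rpp203 (-0.54 ± 0.07), rpl502 (-0.51 ± 0.06), rpp101 (-0.48 ± 0.04) and rps1602 (-0.39 ± 0.04). After both treatments rpl3402 read 11.42, 11.51 and 11.52 in WT, slm9D and hip1D, its lowest values in each strain. Quantile normalization of the S. pombe probe sets alone gave 42 lower and 8 higher, with a median of -0.04, against 0.01 for all tested probe sets. Without slm9D 42 were called, and without hip1D 45. The 3 stress comparisons share the unstressed arrays.

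The 2 treatments were also compared with each treatment alone. Cells given 40 °C before H2O2 had lower signals than cells given H2O2 alone for 67 members, against 17.8% of all tested probe sets called lower, and a higher signal for 1, against 18% called higher. The median was -0.09. The largest falls were those of rpl4101 (-0.51 ± 0.12), rpp203 (-0.44 ± 0.07), rpp101 (-0.38 ± 0.04) and rpp201 (-0.37 ± 0.04), and the 1 rise was that of rps1401 (0.40 ± 0.07). Without slm9D 12 members were called here, and without hip1D 25. Against 40 °C alone, 23 members were higher and 18 lower, against 18.2% and 27.5% of all tested probe sets. The extremes were rpl1603 (1.01 ± 0.11) and rps1401 (-1.68 ± 0.07). This balance turned with the scale: equal medians of probe sets outside S. pombe gave 9 higher and 24 lower, and quantile normalization on S. pombe probe sets 29 and 11. The members' median was -0.013 in the former, against -0.085 for all tested probe sets. In the latter it was 0.0225, against 0.0154. Without slm9D 2 were called, without hip1D 9.

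The interaction asks whether H2O2 acted differently after the 40 °C step. It was called for 1 of 120 members and for 0 in the negative direction, against 8.95% and 5.79% of all tested probe sets. The 1 call was rps2601, at 0.20 ± 0.04 with a limma adjusted p of 0.0206. It was positive in 3 of 3 strains. An unadjusted limma p under 0.05 was reached by 9 of 120 members, against 961 of all 2917 tested probe sets. No member was called without slm9D or without hip1D, and 23 were called without WT. The rps2601 call was also lost with equal medians of S. pombe probe sets and without the intensity trend.

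The rps14 family showed the largest split between paralogs. It encodes a protein of the platform of the small subunit. In WT, slm9D and hip1D the rps1401 signals were 12.27, 12.23 and 12.24 unstressed, 12.28, 12.30 and 12.41 at 40 °C, 10.20, 10.42 and 10.14 with H2O2, and 10.62, 10.70 and 10.64 with both treatments. The 6 arrays with H2O2 were all lower than the 6 without. Among all 2917 probe sets, the difference after H2O2 was the tenth lowest by rank (limma adjusted p = 4.46e-07). The signals of its paralog rps1402 were 13.35, 13.31 and 13.30 unstressed, 13.12, 13.04 and 13.01 at 40 °C, 13.53, 13.43 and 13.40 with H2O2, and 13.28, 13.19 and 13.07 with both treatments. So rps1402 rose slightly after H2O2 (0.13 ± 0.03) while rps1401 fell. At 40 °C the order was opposite: rps1402 fell (-0.26) and rps1401 stood at 0.08 ± 0.07, not called. The paralog difference, rps1401 minus rps1402, was -2.13 ± 0.17 (SD, n = 3 strains) after H2O2 and -1.45 ± 0.10 after both. Mutants and WT did not show a called difference in rps1401 (0.04, adjusted p = 0.544).

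The rpl16 family showed the largest difference between mutants and WT. In WT, slm9D and hip1D the rpl1603 signals were 10.72, 9.86 and 9.82 unstressed, 10.24, 8.95 and 8.84 at 40 °C, 11.58, 10.37 and 10.20 with H2O2, and 10.97, 10.12 and 9.98 with both treatments. In each condition both mutants were lower than WT and lay close to each other. The mean difference was -1.11 ± 0.08 (2.16-fold, limma adjusted p = 1.14e-05), which is the tenth lowest of 2917 probe sets. It was -0.89 unstressed, -1.35 at 40 °C, -1.29 after H2O2 and -0.92 after both. Over 11 alternative settings it ranged from -1.19 to -1.03. In every strain rpl1603 was lower at 40 °C and higher after H2O2 than unstressed.

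The other copies of this family did not follow it. The rpl1601 signals lay between 13.36 and 13.48 on all 12 arrays, and the mutants differed from WT by -0.02 ± 0.02. For rpl1602 the difference was -0.03. The log2 ratio of rpl1601 to rpl1603 was higher in the mutants by 1.09 ± 0.24 (SD, n = 4 conditions, range 0.88 to 1.33), in 4 of 4 conditions. An exact two-sided permutation test, which permuted the WT label within each condition, gave p = 0.0123, the smallest that its 81 arrangements allow. It counts the 4 conditions as independent repeats of a single WT strain, although their arrays may come from 1 culture. The p-value therefore does not measure spread between strains or cultures. The ratio rose by 0.69 ± 0.25 at 40 °C, and changed by -0.61 ± 0.22 after H2O2 and -0.29 ± 0.04 after both (SD, n = 3 strains). An exact test with 3 strains cannot go below p = 0.25, and each of these gave 0.25. The signals of rpl1601 lie near the top of the range and those of rpl1603 do not. The pair was chosen with its response known.

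**Figure D3:**
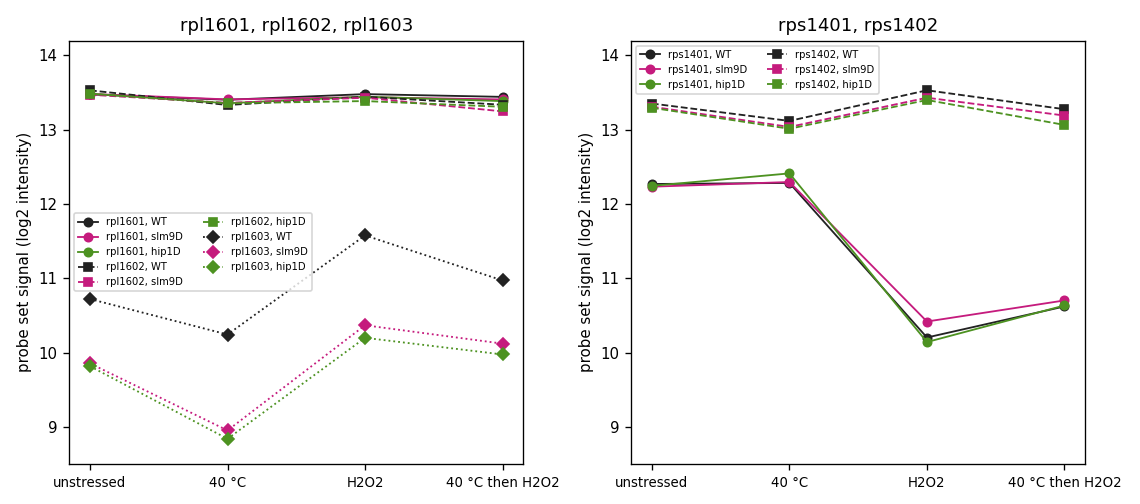
Log2 signal (vertical axis) in the 4 conditions (horizontal axis) for the rpl16 genes (left) and rps14 genes (right), with 1 line per gene and strain. Each point is 1 array. The signals of rpl1603 are lower in both mutants than in WT throughout, those of rps1401 drop with H2O2 in all strains alike, and the other copies lie between 13.01 and 13.53.

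Families were formed by symbol, from genes numbered with 3 or 4 digits that share all but the last 2. Genes with shorter numbers were counted as single, so rps23 was not paired with rps2302, nor rpl15 with rpl1502. Across the gene group, 42 families had at least 2 copies measured, 5 of them with 3. They gave 53 pairs of probe sets from 89 genes. The responses of a pair were over 0.25 log2 units apart in 10 pairs at 40 °C, 7 after H2O2, 14 after both and 5 for mutants against WT. The median absolute difference between the responses of a pair was 0.10 at 40 °C, 0.07 after H2O2, 0.10 after both and 0.08 for mutants against WT. It was over 0.5 in 3, 4, 3 and 2 pairs. The difference had the same sign in all 3 strains in 36 pairs at 40 °C, 32 after H2O2 and 33 after both, and in all 4 conditions in 29 pairs for mutants against WT. At 40 °C both copies fell in 35 pairs and 1 copy was called in 14. Opposite calls were made in 2 pairs after H2O2, in 1 after both, and in 0 at 40 °C or for mutants against WT. The copy of lower mean signal had the lower response in 35 of 53 pairs at 40 °C and 29 after H2O2. Whether a probe set also binds the mRNA of a near-identical paralog was not tested.

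Besides rpl16 and rps14, the largest splits were in these families. In the rpl34 family the rpl3401 response exceeded that of rpl3402 by 0.47 ± 0.07 at 40 °C, 0.54 ± 0.11 after H2O2 and 0.73 ± 0.08 after both (SD, n = 3 strains). The rpl3401 signals stayed between 13.40 and 13.57 on all arrays. In the rpl41 family rpl4101 fell at 40 °C while rpl4102 stood at 0.04, a split of -0.51 ± 0.29 that ranged from -0.84 to -0.27 over strains. In the rps26 family rps2601 fell and rps2602 stood at 0.03, a split of -0.46 ± 0.11. The rpl25 genes, for a protein at the exit of the peptide tunnel, gave the other opposite call after H2O2: rpl2501 rose by 0.09 and rpl2502 fell by 0.22, a split of 0.31 ± 0.01. The opposite call after both treatments was that of rpl3601 (-0.19) and rpl3602 (0.11). Among the P2 genes, rpp202 and rpp203 differed by 0.55 ± 0.20 after both treatments. No split other than that of rpl1601 and rpl1603 was tested.

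**Figure D4:**
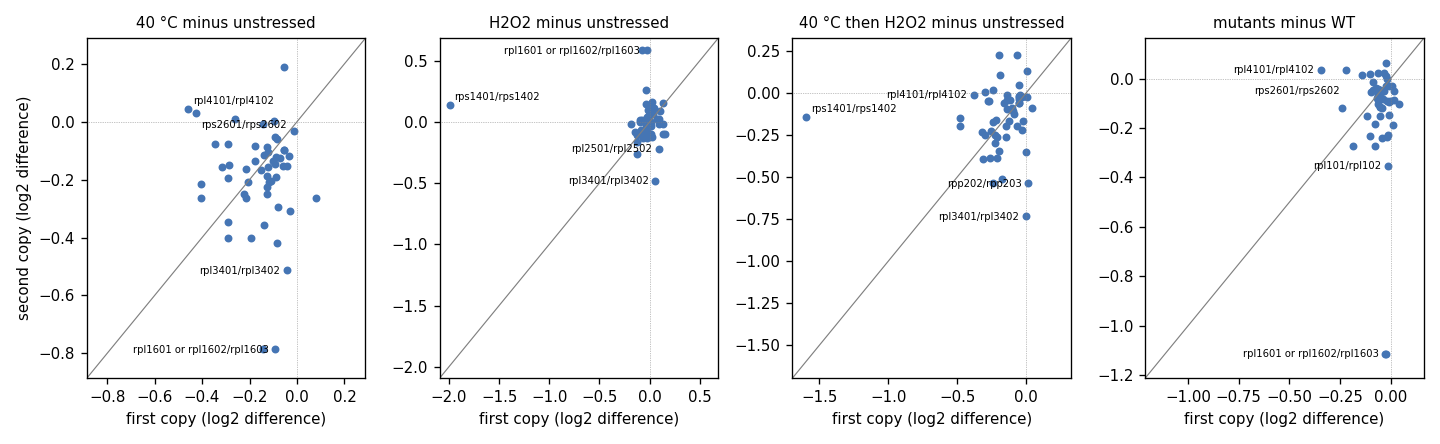
Responses of paralog pairs: the log2 difference of the copy with the lower number (horizontal axis) against that of the copy with the higher number (vertical axis) for 53 pairs, in 1 panel per comparison. Each point is a pair and the line marks equal response. Most points lie within 0.25 of the line, and the labelled pairs are those of the largest splits, with rps1401/rps1402 at -1.99 and 0.13 after H2O2.

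In the HIRA mutants more ribosomal protein genes were lower than higher against WT over all conditions, a balance that turned when arrays were scaled on the probe sets outside S. pombe. The median difference was -0.04, against -0.02 for all tested probe sets. Of 120 members 41 were lower, against 28.7% of all tested probe sets, and 2 were higher, against 25.3%. The large subunit had 25 lower and 1 higher, the small subunit 11 lower and 1 higher, and the stalk 5 of 7 lower (median -0.12), including rpp202, whose call rested on slm9D. With equal medians of the probe sets outside S. pombe, 22 members were higher and 17 lower. The median was then 0.005 for the members and 0.025 for all tested probe sets. Quantile normalization on S. pombe probe sets gave medians of -0.02 for the members and -0.04 for all tested probe sets. Without slm9D 17 were called, and without hip1D 20.

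After rpl1603, the largest differences were those of rpl102 (-0.35 ± 0.05), rpl4101 (-0.35 ± 0.09), rpp203 (-0.27 ± 0.05), rpl802 (-0.24 ± 0.03) and rps2802 (-0.24 ± 0.07). The 2 higher members were rpl22 (0.09 ± 0.03) and rps102 (0.06 ± 0.02). The lowering of rpl102 held under all 11 alternative settings, with values from -0.40 to -0.28. In WT, slm9D and hip1D the rpl102 signals were 12.24, 11.77 and 11.63 at 40 °C and 12.34, 12.11 and 12.13 after both, so WT was the highest strain there as in the other conditions. For rpl802 they were 13.04, 12.94 and 12.92 unstressed, 12.82, 12.57 and 12.47 at 40 °C, 13.13, 12.87 and 12.81 with H2O2, and 12.85, 12.58 and 12.57 with both treatments. WT was again highest in each condition. Of the other stalk genes, rpp103 (-0.15), rpp102 (-0.12) and rpp201 (-0.08) were lower in the mutants, and rpp101 (-0.06) and rpp0 (-0.01) were not called. The call of rpp201 was also lost without either mutant strain, and that of rpp102 without slm9D. The call of rpp202 (-0.19) rested on slm9D: its mean difference from WT was -0.36 in slm9D and -0.01 in hip1D, and without slm9D it was not called (adjusted p = 0.894).

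**Figure D5:**
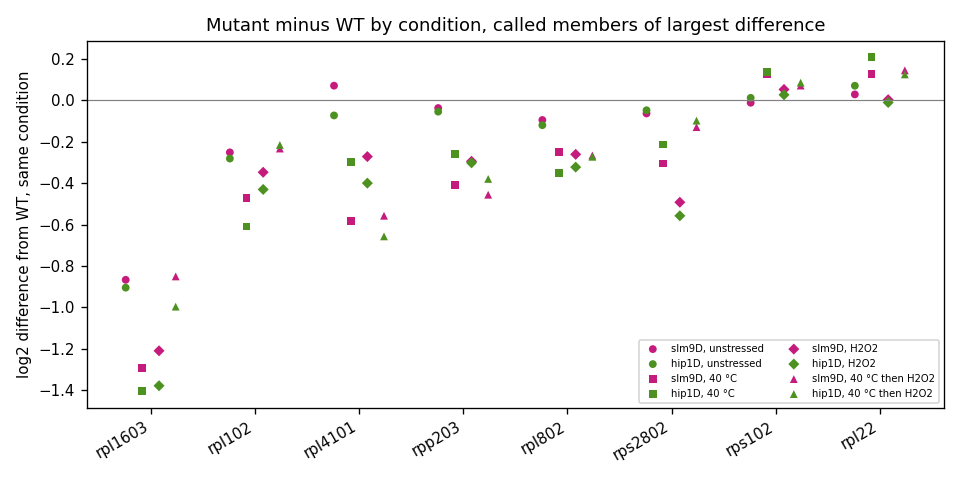
Log2 difference of each mutant array from the WT array of the same condition (vertical axis) for the 8 called ribosomal protein genes of largest difference (horizontal axis). Colours give the mutant and symbols the condition. All 8 values of rpl1603 lie between -1.40 and -0.85. In unstressed cells the values of rpl4101, rpp203, rps2802, rpl22 and rps102 lie near 0.

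The mutant effect was also fitted within each condition, with slm9D and hip1D as 2 mutant arrays and the lone WT array assumed to vary as they do. In unstressed cells 13 members were lower and 1 higher, against 34.6% and 26% of all tested probe sets. At 40 °C 34 were lower and 6 higher, against 34.1% and 29.3%. After H2O2 64 were lower and 0 higher, against 37.2% and 38%. After both treatments 44 were lower and 6 higher, against 29.6% and 29.5%. With equal medians of probe sets outside S. pombe the split was 4 lower and 28 higher unstressed, 24 and 21 in heat, 35 and 7 with H2O2, and 18 and 25 with both. The members' medians were then 0.0409, 0.0003, -0.0251 and 0.0047, against 0.0173, 0.0055, 0.0362 and 0.0407 for all tested probe sets. With quantile normalization on S. pombe probe sets the split was 31 and 11, 46 and 6, and 26 and 17 in the 3 stresses. Those medians were -0.021, -0.0498 and -0.0129, against -0.0755, -0.0649 and -0.0419. With equal medians of S. pombe probe sets the split was 50 lower and 2 higher at 40 °C. The median was -0.0781, against -0.0728.

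The single higher member in unstressed mutants was rpl3002 (0.25 ± 0.04), whose budding yeast relative regulates the splicing of its own mRNA. Its signals in WT, slm9D and hip1D were 12.52, 12.78 and 12.77 unstressed, 13.00, 12.82 and 12.80 at 40 °C, 12.81, 12.79 and 12.75 with H2O2, and 12.96, 12.76 and 12.73 with both treatments. WT was the lowest strain without stress and the highest in each stress. After H2O2, rps2802 was lower in the mutants by 0.52 (13.03 in WT, 12.54 in slm9D and 12.47 in hip1D), whereas unstressed it read 12.55, 12.49 and 12.51. After both treatments rpl4101 differed by -0.61 ± 0.09 and rpp203 by -0.42 ± 0.05.

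The response of the mutants minus that of WT was tested for each stress. It was lower for 13 members and higher for 5 at 40 °C, against 18% and 22.7% of all tested probe sets. After H2O2 it was lower for 23 and higher for 0, against 16.3% and 31%. After both it was lower for 17 and higher for 3, against 19.2% and 26.8%. The lowest values at 40 °C were those of rpl1603 (-0.46 ± 0.10), rpl3002 (-0.45 ± 0.05), rpl4101 (-0.44 ± 0.12) and rpl502 (-0.29 ± 0.05). After both treatments the largest were those of rpl4101 (-0.61 ± 0.12) and rpl3002 (-0.47 ± 0.05), while rpl1603 stood at -0.04 ± 0.10, not called. With quantile normalization on S. pombe probe sets the split was 7 lower and 9 higher for 40 °C, 14 and 2 for H2O2, and 9 and 7 for both. The members' medians were then -0.015, -0.0455 and 0.001, against -0.0289, -0.0283 and -0.0143 for all tested probe sets. With equal medians of S. pombe probe sets no member was higher, and 21 were lower for 40 °C, 96 for H2O2 and 14 for both. Those medians were -0.075, -0.1825 and -0.0383, against -0.0305, -0.0702 and 0.0132. With equal medians of probe sets outside S. pombe the split was 19 lower and 0 higher at 40 °C. All 3 contrasts rest on the WT unstressed array and share it.

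Between the slm9 and hip1 deletions, the members' median difference was 0.00, with a range from -0.35 to 0.12. In limma 0 of 120 members were called, against 0.103% of all tested probe sets. An unadjusted p under 0.05 was reached by 1 member, against 6 of all 2917 tested probe sets. That member was rpp202, lower in slm9D than in hip1D by 0.35 (adjusted p = 0.0896). Its signals in WT, slm9D and hip1D were 13.63, 13.35 and 13.65 unstressed, 13.47, 13.00 and 13.59 at 40 °C, 13.88, 13.51 and 13.69 with H2O2, and 13.66, 13.34 and 13.67 with both treatments. The slm9D value was the lowest in 4 of 4 conditions. With the WT arrays left out of the fit, 1 member was called.

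Genes that work with the ribosomal proteins were described beside them. Their counts stand against the shares of all tested probe sets given above: called lower were 25.7% at 40 °C, 29.2% after H2O2, 33.5% after both and 28.7% in the mutants, and called higher 22.7%, 15.8%, 23.8% and 25.3%. Translation factors fell at 40 °C in 21 of 26 cases and rose in 1 (median -0.43). After H2O2 6 fell and 1 rose (median -0.07), after both 22 fell and 0 rose (median -0.33), and 15 were lower and 0 higher in the mutants (median -0.14). The genes tif213 and tif211, which encode subunits of the initiation factor that brings the initiator tRNA, fell at 40 °C by 0.86 and 0.64 on the log2 scale. Ribosome biogenesis factors, which process rRNA and assemble the subunits, fell in 31 of 39 cases at 40 °C (2 rose, median -0.50), in 28 after H2O2 (2 rose, median -0.47) and in 34 after both (0 rose, median -0.62). In the mutants 23 were lower and 4 higher (median -0.23). The nucleolar gene gar2 fell by 2.13 at 40 °C, and the biogenesis GTPase gene bms1 fell by 1.60 after H2O2.

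Of 32 genes for RNA polymerases I and III and their factors, which make rRNA and tRNA, 13 fell and 2 rose at 40 °C. H2O2 gave 17 falls and 0 rises, and the double treatment 19 and 1 (medians -0.21, -0.39 and -0.46). In the mutants 14 were lower and 3 higher (median -0.16). The gene rpa49, for a polymerase I subunit, fell by 0.92, 1.04 and 0.95 in the 3 stresses. Of 24 regulators tied to ribosomal protein gene transcription, 5 rose and 2 fell at 40 °C. H2O2 gave 4 rises and 4 falls, and the double treatment 9 and 5 (medians 0.13, -0.08 and 0.09). In the mutants 7 were higher and 4 lower (median 0.15). The share that rose at 40 °C and after H2O2 was near that of all tested probe sets. The list includes cgs1, the regulatory subunit of protein kinase A, which rose by 1.75 after H2O2 and 2.20 after both.

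Mitochondrial ribosomal protein genes encode the separate ribosome of the organelle. Of 39, 7 rose and 3 fell at 40 °C (median -0.03), 8 rose and 7 fell after H2O2 (median 0.02), and 9 rose and 6 fell after both (median 0.00). In each stress the share that fell was below that of all tested probe sets. In the mutants 22 were lower and 3 higher, with a median of -0.26, including mrpl44 (-1.19 ± 0.12) and mrpl4 (-0.81 ± 0.08). No difference between these lists and the ribosomal protein genes was tested.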

How the data were processed

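The submitters' processing notes name RMA and Affymetrix Expression Console 1.1 as the tools with which the authors made the intensity values, which were deposited on a linear scale. RMA corrects background, normalizes by quantiles and summarises probes. The array also carries budding yeast probe sets. A log2 was taken here of each deposited intensity. Probe sets were named through the platform annotation, updated by gene ID to the RefSeq table of ASM294v3. limma 3.58.1 in R 4.3.3 was fitted to all 2917 single-gene S. pombe probe sets with an intensity trend. Stresses, both deletions and their interaction used additive strain and condition terms. Mutants within a condition used 8 means, and mutant minus WT responses 8 means plus a term for slm9D against hip1D. The fits for heat, for mutants against WT over all conditions and for unstressed mutants were tested on simulated data. They recovered 25.4%, 31.3% and 55.2% of 1.2-fold changes, in that order. Of 1.5-fold changes they recovered 67.2%, 85.1% and 100%. False calls made up 3.79%, 7.74% and 5.03% of the calls, against the adjusted p threshold of 0.05. The changed probe sets were drawn at random from all those tested, and the simulated noise was independent between arrays. The rates are therefore not those of the bright members. Members that were not called may still have differed slightly. Arrays carry no depth: their number limits the precision. Members, gene lists and tests were chosen with earlier results of these data known. Named genes were rpl1601 and rpl1603, the stalk genes, the members of highest and lowest signal, up to 6 called members of each sign per comparison over all strains (4 within a condition or interaction), the 5 widest paralog splits per comparison and up to 3 of smallest p per list. Other members with a range over 1, or with an opposite call, were named after their values were seen. Background is the 95th percentile of probe sets outside S. pombe, and all 120 members lay above it on all 12 arrays. Alternatives tried were 3 other scalings, no trend, a filter on dim probe sets, and leaving out strains or conditions.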

Additional observations from a re-analysis of the deposited data

Results flagged for a closer look

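Each result here is a difference between effects that was itself tested, with a limma adjusted p under 0.05 over all 2917 probe sets. The effect of H2O2 on rps2601 differed by 0.20 with and without the 40 °C step. It was not called in 4 of 8 alternatives: with equal medians of S. pombe probe sets (0.12), without the intensity trend, without slm9D and without hip1D.

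The response to 40 °C differed between the mutants and WT for 8 named members. It was lower in the mutants for rpl1603 (-0.46), rpl3002 (-0.45), rpl4101 (-0.44) and rpl502 (-0.29), and higher for rps102 (0.13), rpl3602 (0.13), rpl22 (0.12) and rpl2802 (0.11). None of the 4 higher values was called with equal medians of S. pombe probe sets, with equal medians of probe sets outside S. pombe, or without the intensity trend. Among the lower values, rpl4101 was not called without the trend (adjusted p = 0.0873).

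The response to H2O2 was lower in the mutants for rps2802 (-0.47), rpl1603 (-0.41), rpl4101 (-0.33) and rpl3002 (-0.30). The rpl4101 value was not called without the trend or with quantile normalization on S. pombe probe sets. The response to 40 °C then H2O2 was lower for rpl4101 (-0.61), rpl3002 (-0.47), rpp203 (-0.37) and rpl502 (-0.27). It was higher for rps2202 (0.23), rps601 (0.14) and rpp0 (0.11). These 3 higher values were not called with equal medians of S. pombe probe sets or without the trend. In addition, rps2202 was not called with quantile normalization on S. pombe probe sets, nor rpp0 with equal medians of probe sets outside S. pombe. These values rest on 1 WT array per condition and share the unstressed arrays.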

How the results depend on the processing

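Most counts of called members moved by over 1.5 times under some alternative, and the cause was not tested. The members' median at 40 °C stayed below 0 under all 8 alternatives (-0.12 to -0.05). Without the intensity trend, which lets bright probe sets take a smaller spread, the counts were 39 at 40 °C (main 81), 8 after H2O2 (39), 29 for both treatments against H2O2 (68), 7 against 40 °C (41), 0 for the interaction (1) and 17 for mutants against WT (43). For mutants within a condition they were 4 unstressed (14), 21 at 40 °C (40), 29 after H2O2 (64) and 16 after both (50), and for the responses 5, 4 and 5 (18, 23 and 20). Quantile normalization on S. pombe probe sets gave 53 at 40 °C, 31 for both against H2O2 and 2 for the interaction. Equal medians of probe sets outside S. pombe gave 45, 36, and for mutants 32 unstressed and 42 after H2O2. Equal medians of S. pombe probe sets gave 51 at 40 °C, 14 for both against 40 °C, 0 for the interaction, 7 and 116 for mutants unstressed and after H2O2, and 96 for the response to H2O2. Leaving out 1 strain, or 1 condition for the mutants, gave 29 to 93 at 40 °C, 6 to 57 after H2O2, 42 to 87 after both, 12 to 74 for both against H2O2, 2 to 53 against 40 °C, 0 to 23 for the interaction and 17 to 45 for mutants. It gave 0 for slm9D against hip1D, and the mutant arrays alone gave 1. Leaving out a mutant strain in the fits within a condition leaves no residual degrees of freedom, so no test was run.

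With the members near the highest signal left out, the medians were -0.23 (large), -0.18 (small) and -0.21 (all) at 40 °C, -0.20, -0.23 and -0.23 after both, and -0.094, -0.072 and -0.078 for mutants. The sign turned for rpp0 after H2O2 (0.026, equal medians of S. pombe probe sets), rpl1601 after both (0.0058, quantile normalization) and rpp0 in mutants after H2O2 (0.055, quantile normalization). The stress fits are already blocked by strain. No paired analysis was possible by replicate number because the labels give none. The planned promoter motif search and paralog protein identities were not run.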
